A study of Mus musculus with 2 samples.

Results

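Nephrin (Nphs1), its relatives Kirrel2 and Kirrel3, and 4 genes of the podocyte slit diaphragm (Cd2ap, Podxl, Synpo and Magi2) were followed in mouse stomach RNA. The cells had been sorted for, or depleted of, a marker of histamine-making cells. These 7 genes were taken from a fixed list of names, out of 37681 gene identifiers in the count files, and all 7 were found. Nphs1 and Kirrel2 were put on the list because earlier results of these same libraries had shown them to be very high in the sorted cells. Their difference is therefore described here and supports nothing. The other 5 were listed to see whether partners of nephrin had the same pattern.

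The study asked where the cells of the gastric corpus that express histidine decarboxylase (Hdc) come from. RNA was sequenced from C57BL/6 mice carrying an Hdc-CFP transgene, in which cyan fluorescent protein marks cells with Hdc activity. One library came from sorted Hdc-CFP+ cells of the stomach and 1 from stomach corpus epithelial cells depleted of Hdc-CFP cells, so both groups share strain and genotype. The number and age of the mice, and whether the transgene marks every Hdc cell, are not given in the sources used here.

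In the kidney, podocytes send out interlocking foot processes, and the slit diaphragm is the specialised junction that bridges them and filters the blood. Nephrin and the Kirrel proteins are adhesion molecules of the immunoglobulin superfamily that bind each other across this junction. On the inner side, scaffold and adaptor proteins such as CD2AP, MAGI proteins and NCK proteins tie the complex to actin. Outside the kidney, nephrin and Kirrel2 are also known from pancreatic islet beta cells, and Kirrel3 from neurons.

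The depth was 10736538 gene counts in the sorted library and 50928524 in the depleted one, 4.74 times as many. Levels are given as normalised CPM, read counts scaled to library size with trimmed-mean factors, with exact 95% Poisson intervals, and a fold is the ratio of these between the libraries, with an exact 95% Clopper-Pearson interval in brackets. These intervals hold counting error and nothing else. Each group has a single library, so replicates could not be compared, no p-value is given, and every difference is between these libraries. In RNA from many cells, fewer cells of a type and less RNA per cell cannot be told apart. Chga, the granule gene used below as a reference for endocrine cells, stood at 63985 CPM in the sorted library and 164 CPM in the depleted one. Hdc stood at 8750.2 and 21.2 CPM, in the direction of the labels.

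Kirrel2 and Nphs1 lie side by side on mouse chromosome 7 in opposite orientation. In GENCODE M21 (GRCm38), 624 bases separate the annotated genes. The stretch before the RefSeq start of Kirrel2, in which GENCODE also begins non-coding Kirrel2 transcripts, is shown because it lies on the side that faces Nphs1, and the pair had the highest folds of the list. These are the 250 bases before the start, at chr7:30457516-30457765 of GRCm38.p6, minus strand, as given by RefSeq. Capitals mark the matches described next.
Kirrel2: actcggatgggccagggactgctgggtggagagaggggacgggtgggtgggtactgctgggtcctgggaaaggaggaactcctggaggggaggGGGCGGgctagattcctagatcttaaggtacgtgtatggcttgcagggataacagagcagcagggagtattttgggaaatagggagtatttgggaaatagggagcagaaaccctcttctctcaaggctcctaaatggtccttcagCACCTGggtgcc

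Both strands were searched for 8 short motifs. This window held 1 GC box (GGGCGG), which begins 157 bases before the start, and 1 E-box (CANNTG), which begins 12 bases before it. Of 32851 promoter windows of the same length, 32.7% held the GC box and 66.2% the E-box, so both are common. The window had no match to CAGATG, an E-box form bound by NEUROD1-type factors, to the homeobox core TAATTA, to the forkhead motif TGTTTAC, to the WT1/EGR motifs GCGGGGGCG and GCGTGGGCG or to the cAMP response element TGACGTCA. The share of promoters with these ranged from 0.536% for GCGTGGGCG to 14.4% for CAGATG. The matching window of Nphs1 held none of the 8. It is not shown, because GENCODE places it within an Nphs1 exon. RefSeq starts of the 2 genes lie 2543 bases apart. Promoters of 4 of the 7 genes were matched (Nphs1, Kirrel2, Cd2ap and Magi2), while Kirrel3, Podxl and Synpo had no entry.

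Of the 7 genes, 5 were higher and 1 was lower in the sorted library by at least 2-fold and with an interval that excludes 1, the rule used for all calls below. All 7 had at least 10 counts in at least 1 library, which is what measured means here. Of 16682 measured genes, 21.9% were called higher and 21.9% called lower, 43.8% in all. Since the list was partly chosen from this contrast, nothing is read from the share or the median log2 fold of the 7. The median log2 fold was 4.28 over the 7 genes and -0.05 over all measured genes. Without a scaling factor the median of all measured genes moved by 0.36, and 62.9% of all calls were higher rather than 50.01%. The direction of all 7 genes stayed the same under each of the 5 other scalings.

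**Figure D1:**
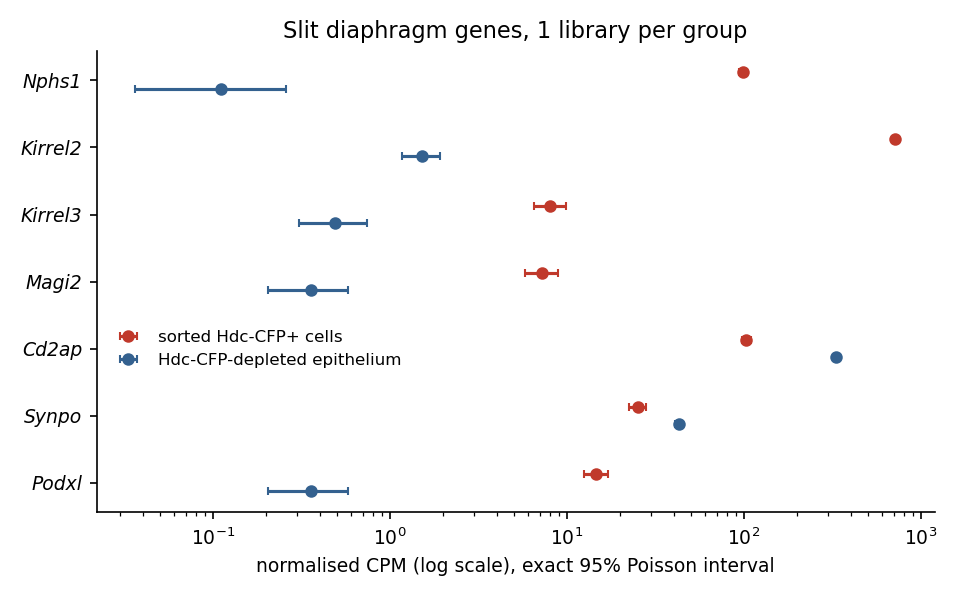
Normalised CPM (log axis) of the 7 genes in the sorted (red) and depleted (blue) library, 1 library each, with exact 95% Poisson intervals as bars. Nphs1, Kirrel2, Kirrel3, Magi2 and Podxl are higher in the sorted library, from 7.23 to 712 CPM, and Cd2ap and Synpo are lower in it.

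Nephrin reads were found almost entirely in the sorted library. Nphs1 (ENSMUSG00000006649) had 1200 counts in the sorted library, or 98.5 CPM [93.0 to 104], and 5 counts in the depleted library, or 0.111 CPM [0.0362 to 0.260]. The intervals lie far apart. The ratio was 885 [378 to 2731], and its upper end is loose because it rests on 5 counts. By log2 fold Nphs1 ranked 8 of 16682 measured genes. Part of the gene is shared with an antisense transcript, Nphs1os, which overlaps 597 of its 6620 exon bases (9.02%). The strand setting of the counting is not given in the sources used here, so reads of this stretch cannot be assigned to a strand. Nphs1os, named after its value was seen, had 22 counts in the sorted library and 0 in the depleted one. It was 27.0-fold higher with the 0 held to a floor of 3 counts, and its exact interval begins at 20.2-fold.

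Kirrel2, a binding partner of nephrin, was the most abundant gene of the list in the sorted library. It had 8665 counts, or 712 CPM [697 to 727], against 68 counts, or 1.51 CPM [1.18 to 1.92]. That made it the gene with the 75th most counts among measured genes of the sorted library, while it ranked 12687 in the depleted library. Kirrel2 (ENSMUSG00000036915) was 469.9-fold higher in the sorted library [370.3 to 606], rank 25 by log2 fold. None of its 50-base words occurred in transcripts of another gene.

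The other 2 Kirrel genes were also higher in the sorted library, at far lower levels. Kirrel3, an adhesion molecule of neurons, had 98 counts (8.05 CPM [6.53 to 9.81]) against 22 (0.490 CPM [0.307 to 0.742]). Its fold was 16.4 [10.3 to 27.4]. Kirrel, the gene for the best-studied nephrin partner of podocytes and not one of the 7, had 48 counts (3.94 CPM) against 6 (0.134 CPM) and was 29.5-fold higher [12.6 to 84.4]. Kirrel2 took 98.3% of the reads of the 3 genes in the sorted library [98.1 to 98.6, exact binomial] and 70.8% in the depleted library [60.7 to 79.7]. Counts of Kirrel2 per count of Kirrel3 were 28.6 times higher in the sorted than in the depleted library [16.1 to 49.0]. Kirrel2 had the most reads of the 3 in both libraries, and since it was listed for its level in the sorted one, nothing is read from these shares.

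Both the scaffold gene Magi2 and the apical gene Podxl were higher in the sorted library. Magi2, a scaffold with PDZ domains that binds nephrin, had 88 counts (7.23 CPM [5.80 to 8.90]) against 16 (0.356 CPM [0.204 to 0.579]). It was 20.3-fold higher in the sorted library [11.8 to 37.0]. Podxl, the gene for podocalyxin, the negatively charged sialomucin of the podocyte surface, had 178 counts (14.6 CPM [12.5 to 16.9]) against 16 (0.356 CPM [0.204 to 0.579]) and was 41.0-fold higher [24.6 to 73.3]. Each of these folds rests on 16 counts in the depleted library, where the floor of 3 counts corresponds to 0.0668 CPM.

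Cd2ap and Synpo had their higher level in the depleted library. Cd2ap, the adaptor that couples nephrin to actin and to endocytosis, had 1255 counts (103 CPM [97.4 to 109]) in the sorted library and 14766 (329 CPM [324 to 334]) in the depleted one. It was 3.19-fold lower after sorting [3.01 to 3.38]. Cd2ap shared 5.24% of its 50-base words with transcripts of another gene, most of them of Gm6475. Synpo, an actin-binding protein of foot processes and dendritic spines, had 305 counts (25.0 CPM [22.3 to 28.0]) against 1918 (42.7 CPM [40.8 to 44.7]). At 1.71-fold lower [1.51 to 1.93] it did not reach 2-fold. Cd2ap and Synpo were therefore well represented in both libraries.

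**Figure D2:**
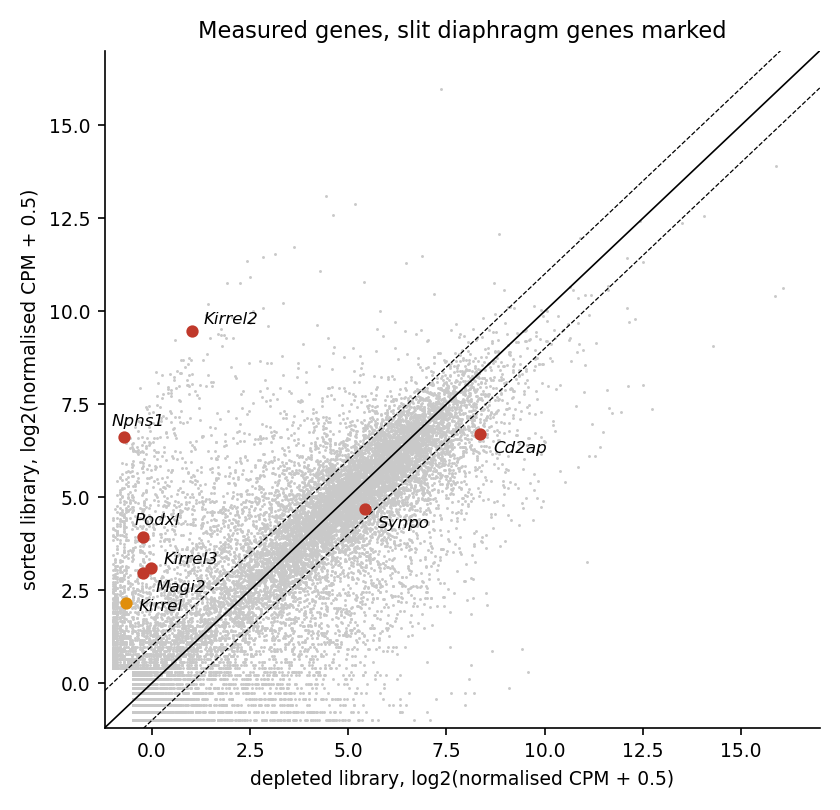
Each grey point is 1 of 16682 measured genes, with log2(normalised CPM + 0.5) in the depleted library on the x axis and in the sorted library on the y axis. The solid line marks equal levels and the dashed lines 2-fold, the 7 genes are red and Kirrel orange. Kirrel2 (712 against 1.51 CPM) and Nphs1 (98.5 against 0.111 CPM) lie at the upper left edge of the cloud.

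Levels of different genes were compared per kilobase of annotated exon, as normalised CPM per kilobase. In the sorted library the order was Kirrel2 (181 [177 to 184]), Nphs1 (14.9 [14.1 to 15.8]), Cd2ap (6.50 [6.14 to 6.87]), Podxl (2.66 [2.29 to 3.08]) and Synpo (2.63 [2.34 to 2.94]). Kirrel3 (1.25 [1.01 to 1.52]), Magi2 (0.637 [0.511 to 0.785]) and Kirrel (0.528 [0.389 to 0.700]) followed. Podxl and Synpo could not be ordered within counting error, nor could Magi2 and Kirrel. On this scale Kirrel2 stood at 12.1 times the level of Nphs1 and 145 times that of Kirrel3 in the sorted library.

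In the depleted library the order began with Cd2ap (20.7 CPM per kilobase [20.4 to 21.1]) and Synpo (4.48 [4.28 to 4.69]). Kirrel2 (0.384 [0.299 to 0.487]) came next. Kirrel3 (0.0759), Podxl (0.0649), Magi2 (0.0314), Kirrel (0.0179) and Nphs1 (0.0168) were lowest, each overlapping the next. Nphs1 was thus second in the sorted library and last in the depleted one. Its last place could not be told from that of Kirrel within counting error. Among measured genes the per-length level of Nphs1 lay at percentile 80.8 in the sorted library and 2.45 in the depleted one, and that of Kirrel2 at percentile 99.3 and 18.1. Both genes were listed for their high level in the sorted library, so nothing is read from these places.

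The members were also set against Chga within each library. Kirrel2 gave 11.1 counts per 1000 counts of Chga in the sorted library and 9.26 in the depleted one, a ratio of 1.20 [0.945 to 1.55]. Nphs1 gave 1.54 and 0.681, a ratio of 2.26 [0.966 to 6.98]. Both intervals include 1, and the wide one of Nphs1 also allows a proportion several times higher in the sorted library. Nphs1 per 1000 counts of Kirrel2 was 138 in the sorted library and 73.5 in the depleted one, a ratio of 1.88 [0.766 to 6.00].

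The other 5 members, and Kirrel beside them, had more counts per count of Chga in the depleted library. The factor was 9.54 for Podxl [5.33 to 15.9], 13.3 for Kirrel [4.64 to 31.1], 19.3 for Magi2 [10.6 to 33.1] and 23.8 for Kirrel3 [14.3 to 38.1]. It was 667 for Synpo [590 to 757] and 1248 for Cd2ap [1173 to 1329]. Kirrel2 and Nphs1 were listed for their high level in the library rich in Chga, so nothing is read from their place in this range.

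Genes on either side of the pair were also followed. Of the 5 nearest protein-coding genes on each side, 9 were measured, of which 3 were higher and 2 lower in the sorted library, against 21.9% each way among all measured genes, and with 9 genes nothing is read from these counts. Aplp1, which encodes an amyloid precursor-like protein and lies next to Kirrel2, had 21359 counts (1754 CPM) against 1886 (42.0 CPM) and was 41.8-fold higher [39.8 to 43.8]. Counts of Kirrel2 per count of Aplp1 were 11.3 times higher in the sorted than in the depleted library [8.82 to 14.6], and those of Nphs1 21.2 times [9.04 to 65.5]. Kirrel2 and Nphs1 were listed for their high level in the sorted library, so nothing is read from these ratios.

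Lrfn3, a synaptic adhesion gene, was 4.07-fold [3.63 to 4.56] and Arhgap33 2.35-fold higher [1.93 to 2.84]. Tyrobp, an adaptor of myeloid cells, was 120.0-fold lower [55.1 to 327] and Nfkbid, a regulator of NF-kB, 5.89-fold lower [4.197 to 8.52]. Hcst, with 4 counts against 38, had a depleted-over-sorted ratio of 2.58 [0.928 to 9.94], an interval that includes 1, and was called lower only with trimmed-mean factors from all genes. Hspb6 was 1.77-fold higher [1.35 to 2.30] and passed 2-fold without a scaling factor and without the 20 most abundant genes in the total, while Proser3 and Lin37 had ratios of sorted to depleted of 0.961 [0.733 to 1.25] and 1.03 [0.832 to 1.26] and did not differ beyond counting error. Prodh2, the next gene beyond Nphs1, had 4 counts in the sorted library and 0 in the depleted one and was not measured. Of the 3 neighbours called higher, Aplp1 had the largest fold.

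**Figure D3:**
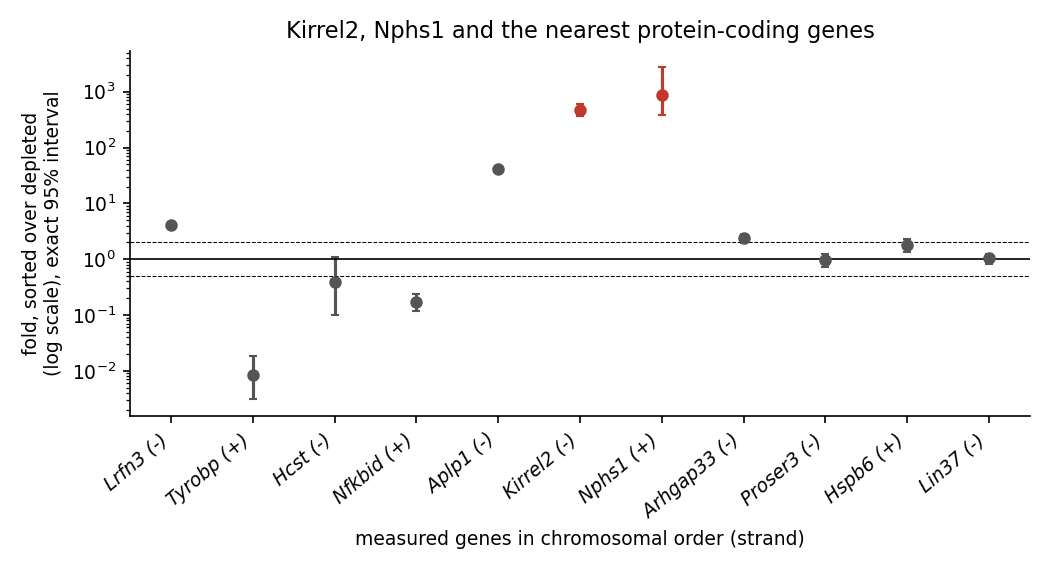
Fold of sorted over depleted (log axis) with exact 95% intervals for the measured protein-coding genes around the pair, in chromosomal order with the strand in brackets. The solid line marks equal levels and the dashed lines 2-fold. Kirrel2 (469.9-fold) and Nphs1 (885-fold) are in red, Aplp1 (41.8-fold) is next to them, and the other neighbours lie between 120.0-fold lower and 4.07-fold higher.

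Genes of the wider slit diaphragm complex were called in both directions. Of 26 further listed genes of the nephrin complex and its adaptors, 25 were measured, 3 higher (12%) and 8 lower (32%), against 21.9% each way among all measured genes. Their median log2 fold was -0.35, beside -0.05 over all measured genes. The 3 that were higher were Kirrel, Fyn, the kinase that phosphorylates nephrin, at 13.5 against 2.85 CPM (4.72-fold [3.73 to 6.00]), and Pik3r1, a regulatory subunit of PI3-kinase, at 467 against 209 CPM (2.24-fold [2.17 to 2.31]). Cdh3, the gene for P-cadherin, was 14.4-fold lower after sorting [7.51 to 31.6] and Plce1, a phospholipase C linked to nephrotic syndrome, 8.19-fold [7.11 to 9.50]. The abundant catenin gene Ctnnd1 was 3.06-fold lower [2.95 to 3.19].

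Fat1, a giant protocadherin of the slit diaphragm, stood at 484 against 266 CPM, 1.82-fold higher [1.76 to 1.87], and passed 2-fold without a scaling factor and without the 20 most abundant genes in the total. Ctnnb1, the gene for beta-catenin, differed by 1.07-fold [1.04 to 1.10], with the lower level in the sorted library, a direction that turned under the same settings. Trpc6, a podocyte calcium channel named after its value was seen, had 0 counts in both libraries, which allows up to 0.246 CPM in the sorted library and 0.0668 CPM in the depleted one.

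Among regulators of the podocyte actin skeleton, 1 of 18 measured genes was higher (5.56%) and 5 were lower (27.8%). Among all measured genes the share was 21.9% each way. With 18 genes nothing is read from these counts. The median log2 fold was -0.87. Synpo2, a relative of Synpo, was 4.86-fold higher [3.23 to 7.36] on 58 counts against 44. Actn4, an actin crosslinker, stood at 220.2 against 711 CPM, 3.23-fold lower [3.10 to 3.36]. Anln was 12.9-fold [9.51 to 17.8] and the motor gene Myo1e 3.997-fold lower [3.65 to 4.39]. Anln also serves cell division, so it is not specific to podocytes. Arhgdia was 1.95-fold [1.87 to 2.04], Tln1, the gene for talin, 1.79-fold [1.71 to 1.87] and Cdc42 1.29-fold lower [1.24 to 1.35], all under 2-fold. Arhgdia passed 2-fold with DESeq2 size factors and with trimmed-mean factors from all genes.

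Relatives and partners of podocalyxin were split. Podxl2, which encodes endoglycan of the same sialomucin family, had 471 counts (38.7 CPM) against 38 (0.846 CPM) and was 45.7-fold higher in the sorted library [32.8 to 65.4], close to the fold of Podxl. The ezrin family links podocalyxin to actin, and its members differed in direction. Rdx, the gene for radixin, stood at 126 against 18.2 CPM (6.91-fold higher [6.34 to 7.53]), while Ezr stood at 173 against 1775 CPM (10.2-fold lower [9.81 to 10.7]) and Msn at 4.27 against 58.3 CPM (13.7-fold lower [10.4 to 18.3]). The PDZ adaptor genes Slc9a3r1 and Slc9a3r2 were 4.63-fold [4.15 to 5.19] and 2.35-fold lower [2.15 to 2.57]. The call for Slc9a3r2 was lost without a scaling factor. Of the 7 listed genes, 2 were higher and 4 lower, against 21.9% each way among all measured genes. With 7 genes nothing is read from these counts. The median log2 fold was -1.23.

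Most transcription factor genes of podocytes had few or no reads in either library. Wt1, Foxc2, Tcf21, Foxd2 and Osr1 had 0 counts in the sorted library, of which Wt1, Foxc2, Foxd2 and Osr1 are named after their values were seen. In the deeper depleted library Wt1 and Foxd2 also had 0 counts, while Foxc2 had 3 and Osr1 had 8. Lmx1b, a LIM homeobox factor of podocytes that also specifies serotonin neurons, had 223 counts (18.3 CPM) against 3 (0.0668 CPM), a ratio of 274 [92.6 to 1339]. Tcf21, with 0 against 25 counts, was 2.26-fold lower with the 0 held to a floor of 3 counts, and its exact interval begins at 1.71-fold. The call for Tcf21 was lost without a scaling factor and without the 20 most abundant genes. Foxc1, with 4 against 27 counts, had a depleted-over-sorted ratio of 1.83 [0.638 to 7.20], not different from 1 beyond counting error. Of the 7 listed genes 3 were measured, 1 higher and 1 lower, against 21.9% each way among all measured genes. With 3 genes nothing is read from these counts. The median log2 fold of the 3 was -0.84, also with Tcf21 held to the floor.

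Genes of podocyte identity and of the glomerular basement membrane went both ways. Of 16 measured, 5 were higher (31.25%) and 7 lower (43.75%), against 21.9% each way among all measured genes. The median log2 fold was -0.89. Plekhh2, a podocyte gene that binds actin, had 306 counts (25.1 CPM) against 15 (0.334 CPM) and was 75.2-fold higher in the sorted library [44.9 to 136]. Mme, which encodes the peptidase neprilysin, had 43 counts against 2, a ratio of 79.3 [20.7 to 676]. Vegfa, the endothelial growth factor gene, stood at 235 against 88.3 CPM (2.66-fold higher [2.54 to 2.80]).

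The matrix genes of the list were lower. Lamb2, a laminin chain of the glomerular membrane, was 8.69-fold lower [6.92 to 11.1] and Npnt, a ligand of integrins, 9.88-fold [7.46 to 13.4]. Col4a3, Col4a4 and Col4a5, the collagen chains of that membrane and named after their values were seen, were 5.81-fold [3.53 to 10.3], 5.69-fold [2.70 to 14.4] and 3.91-fold lower [2.67 to 5.96]. Ptpro, a receptor phosphatase of podocytes, was 22.0-fold lower [10.02 to 60.2]. Itga3, the integrin that holds podocytes to the membrane, was 1.90-fold lower [1.78 to 2.03] and passed 2-fold with DESeq2 size factors and with trimmed-mean factors from all genes.

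**Figure D4:**
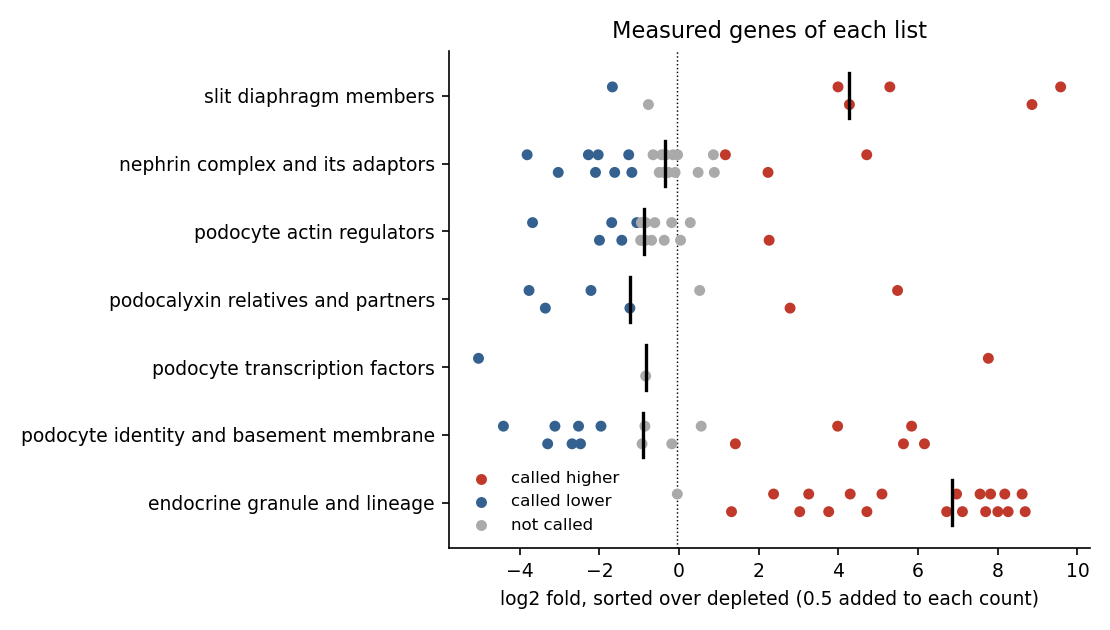
Log2 fold of sorted over depleted, with 0.5 added to each count, for each measured gene of the slit diaphragm members, the 5 pathway lists and the endocrine list. Colour shows the call, the black bar is the median of a list and the dotted line the median of all measured genes (-0.05). The members (median 4.28) and endocrine genes (median 6.84) lie to the right, and the 5 pathway lists have medians from -1.23 to -0.35. The members include Nphs1 and Kirrel2, listed for their high level in the sorted library, so nothing is read from the place of the members.

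Over the 5 pathway lists, 69 of 77 genes were measured, of which 12 (17.4%) were higher and 25 (36.2%) lower in the sorted library, against 21.9% each among all measured genes. Endocrine granule and lineage genes were higher in 19 of 20 measured cases. The folds of Nphs1 (885) and Kirrel2 (469.9) lay beside those of Chga (391 [382 to 400.4]) and Hdc (413 [388 to 441]), and above the fold of every called gene in the 5 pathway lists, of which Lmx1b had the highest (274). Nphs1 and Kirrel2 were listed for their high level in the sorted library, so nothing is read from this place. The interval of Lmx1b, which rests on 3 counts in the depleted library, overlaps those of both genes.

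Markers of other cells that could carry these genes were measured in the same libraries, and their part in the results was not tested. Hormone genes of other stomach endocrine cells, named after their values were seen, had reads in both libraries. Ghrl stood at 4348 CPM in the sorted library against 455 CPM in the depleted one, and Sst at 710 against 87.0 CPM. The called counts of the lists of other cells stand beside 21.9% called higher and 21.9% called lower among all measured genes. Of 8 listed genes of kidney tubules 5 were measured, with a summed level of 6.73 CPM in the sorted library and 11.9 CPM in the depleted one. Lrp2, the gene for megalin, stood at 3.61 against 9.75 CPM and Umod had 2 counts against 70. Aqp2, named after its value was seen, had 0 counts in both. Of the 5 measured tubule genes 2 were higher and 2 lower in the sorted library.

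Genes of the pancreas were higher in the same library as Nphs1 and Kirrel2. All 8 measured genes of the acinar list were higher in the sorted library, and its 12 genes summed to 9916 CPM against 41.3 CPM. Pnliprp1 stood at 7603 against 35.7 CPM and Cel at 1172 against 2.20 CPM. Of the islet list 4 genes were measured and 3 were higher, with a sum of 67.7 against 5.79 CPM, mostly from Gcg (60.9 against 1.29 CPM). Pdx1, active in islets and in the distal stomach, stood at 3.37 against 4.12 CPM. The insulin genes Ins1 and Ins2, the defining genes of beta cells and picked after their values were known, had 0 counts in both libraries.

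Podxl is also a gene of vessels, and Kirrel3 and Magi2 are also genes of neurons. The endothelial list summed to 67.3 CPM in the sorted library and 14.6 CPM in the depleted one, with 3 of 8 measured genes higher and 4 lower. Plvap (45.4 against 2.61 CPM) and Esam (19.2 against 3.56 CPM) made up most of the sorted sum. Cdh5, Emcn, Cldn5, Tie1 and Robo4, picked after their values were known, had 0 counts in the sorted library. In the deeper depleted library they had 29, 3, 0, 83 and 2 counts. The neuron and glia list summed to 118 against 2.94 CPM with 6 of 6 measured genes higher. Ret (75.2 against 1.002 CPM) and Elavl4 (24.6 against 0.0891 CPM) led it, while Prph and Sox10, likewise named then, had 0 counts in both.

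Cd2ap and Synpo were higher in the library that also held more macrophage, mesothelial and surface epithelial reads. All 10 macrophage and leukocyte genes were lower in the sorted library (13.6 against 2982 CPM in sum), among them Lyz2 (1.40 against 683 CPM) and Csf1r (0.411 against 545 CPM). Of 10 measured genes of the gastric epithelium 9 were lower, with Gkn1 at 1565 against 68248 CPM and Pgc at 15187 against 60505 CPM. The mesothelial list summed to 7.80 against 50.8 CPM, nearly all from Gpm6a (7.80 against 50.1 CPM), and Msln had 0 counts against 22. Smooth muscle genes summed to 5.75 against 13.4 CPM, with Tagln at 3.70 against 8.51 CPM and Acta2 at 0.328 against 3.01 CPM. Of 6 measured smooth muscle genes, 1 was higher and 3 were lower in the sorted library. The higher one was Myh11, named after its value was seen, with 20 counts against 22 (3.35-fold [1.74 to 6.44]).

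Protein-coding genes with levels most like those of the pair were found by distance on log2(normalised CPM + 0.5) over the 2 libraries. Nearest to Nphs1 were Cacng4 (1171 against 8 counts), Rgs9 (1065 against 6), Tmod2 (1042 against 9) and St8sia5 (1055 against 10), at distances from 0.154 to 0.304. Nearest to Kirrel2 were Rbpjl (7326 against 45 counts), Fst (7595 against 103), Try5 (11524 against 95) and Celf3 (8199 against 122), at distances from 0.488 to 0.680. With 2 libraries such likeness describes only a level and a fold.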

How the data were processed

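RNA-seq was made from 1 sorted and 1 depleted library. Per the submitters' processing notes, the authors aligned reads with TopHat2 2.0.07 to mm9 and counted them with HTSeq. The strand setting, annotation and HTSeq version are not given in the sources used here. Each deposited file holds raw, unscaled counts of reads by Ensembl identifier. The 5 summary rows that name no gene (34.9% of counted alignments in the sorted library and 40.4% in the depleted one, mostly alignments that were not unique) were left out.

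Symbols came from GENCODE M21, which named 32642 of 37681 identifiers, and exon lengths from the same release, built on GRCm38 and not mm9. Libraries were scaled by trimmed-mean factors of edgeR 4.0.16 (R 4.3.3) from measured genes, at 1.13 (sorted) and 0.882 (depleted). Intervals came from scipy 1.17.1 and were tested on simulated data. A gene at 0 counts was held to a floor of 3 counts per library, and 0.5 was added to counts for log2 folds. Overlap of reads between genes was gauged by 50-base words of M21 transcripts.

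Alternatives were 5 other scalings (DESeq2 1.42.0 size factors among them), count filters of 1 and 50, a 4-fold rule, another length and another added count. Trimmed-mean factors from all genes were added after seeing the data. The members and lists were chosen with earlier results of these data known. Named genes were the members, Kirrel, Hdc and Chga, the 10 neighbours of the pair, the 4 genes most like each of the pair, and from each pathway list the 4 with the most CPM and the 2 called with the largest fold each way, with 2 genes of most CPM from other lists. Some listed genes are not reported here and were left out of the lists and their counts.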

Additional observations from a re-analysis of the deposited data

How the results depend on the processing

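No paired analysis was possible because each group held 1 library, and for the same reason no replicate could be left out. The counts of 5 higher and 1 lower among the 7 genes were the same under all 5 other scalings and both other filters. With a rule of 4-fold and an interval beyond 2-fold, 5 were higher and 0 lower, since Cd2ap was 3.19-fold lower. That stricter rule called 2272 measured genes higher and 1880 lower, and 14 pathway genes lower. Without a scaling factor Cd2ap was 2.48-fold and Synpo 1.33-fold lower, and trimmed-mean factors from all genes gave 3.44-fold for Cd2ap. Per kilobase of the longest transcript instead of all exons, the places in the order of levels became 4 for Synpo and 5 for Podxl in the sorted library, and 7 for Nphs1 and 8 for Kirrel in the depleted one, all swaps between genes whose intervals overlapped. Depth limits the folds of Nphs1 and Kirrel, which rest on 5 and 6 counts in the depleted library, and those of Lmx1b, Thsd7a and Mme, which rest on 3, 3 and 2.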

Other observations

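The genes for the main antigens of membranous kidney disease differed in direction, and both rest on few counts. Thsd7a had 16 counts in the sorted library and 3 in the depleted one, a ratio of 19.7 [5.63 to 105]. Pla2r1 had 1 count against 28, a depleted-over-sorted ratio of 7.59 [1.26 to 310.5], a call lost without a scaling factor. Rhpn1, a podocyte gene, had 145 counts (11.9 CPM) against 10 (0.223 CPM) and was 53.5-fold higher in the sorted library [28.3 to 114]. These 3 genes were chosen after their values were seen.

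Among the pancreatic acinar genes, the transcription factor genes Rbpjl (602 against 1.002 CPM) and Ptf1a (170 against 0.646 CPM) were higher in the sorted library. The enzyme genes Cpa1, Amy2a5, Pnlip and Cpb1 had 0, 2, 3 and 4 counts in the sorted library and 0, 0, 2 and 1 in the depleted one. Other enzyme genes of the list were higher in the sorted library. They were Prss2 (3483 against 44 counts), Cela2a (892 against 26), Ctrb1 (78 against 4) and Cela3b (36 against 1), beside Pnliprp1 and Cel above. The acinar genes named here other than Rbpjl were chosen after their values were seen.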
